A study of Homo sapiens with 18 samples.

Results

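Genes of ribosome biogenesis and of the nucleolus were followed in THP-1, an established line of human monocytic leukaemia cells kept in suspension culture. The 40 genes were taken as the rows of the deposited count table whose Ensembl identifier carries one of 40 symbols chosen for their role in making ribosomes. All 40 had counts, all 40 passed the filter on low counts, and they were 40 of the 63677 genes of the table and of the 16678 genes tested. The cells carried an siRNA against TRAFD1 (KD), a scrambled non-targeting siRNA (SCR) or no siRNA (WT). Each siRNA was given at 25 nM, and 72 h later the cells of each condition received lipopolysaccharide (LPS, a component of the bacterial outer membrane) at 10 ng/ml or medium alone for 4 h. Each of the 6 groups held 3 libraries. One series text calls WT untreated and the sample text says that WT received the transfection mix without siRNA, so a difference between SCR and WT cannot be assigned to the siRNA or to the reagent. All libraries came from 1 cell line and 1 siRNA against TRAFD1, and treatments were carried out in triplicate. Whether the 3 libraries of a group were from separately grown cultures is not given in the sources used here, so the p-values measure the spread between these libraries, which may be technical in part.

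Ribosomes are assembled in the nucleolus, where RNA polymerase I transcribes the ribosomal DNA into one long precursor RNA. Small nucleolar ribonucleoproteins (snoRNPs) modify this precursor, the box C/D class by methylation and the box H/ACA class by pseudouridylation, and separate sets of assembly factors cut and fold it into the small and the large subunit. The transcription factor MYC is a well known activator of many of these genes and binds a DNA element called the E-box. Growing leukaemia lines such as THP-1 make ribosomes at a high rate. The genes are described here by role, as 5 genes of RNA polymerase I transcription, 3 of the box C/D snoRNP, 4 of the box H/ACA snoRNP, 12 factors of the small subunit, 12 factors of the large subunit and 4 nucleolar scaffold or helicase proteins.

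The promoters of these genes were read from RefSeq (GRCh38.p14) as windows from 250 bases before to 50 bases after the annotated start of transcription. A window was found for 33 of the 40 genes. The E-box, searched as CACGTG on both strands, was in 12 of these 33 windows (36.4%) and in 7.43% of the 27305 windows of all genes. The core of the ETS factor site, searched as CCGGAAG on both strands, was in 11 of the 33 (33.3%) and in 10.7% of all windows, and the TATA box TATAAA was in 2 of the 33 (6.06%) and in 12.0% of all windows. The motifs were searched one by one and are matches of letters, not measured binding. The windows of all genes were not limited to the genes tested here. They were not matched to the 33 in level or base content, and enrichment was not tested. Stretches around the E-box are shown for MRTO4, WDR43, BYSL and PES1, whose levels rose with LPS in WT and which were picked for display after their values were seen. NOP16, DDX21, NOP56 and PPAN also rose there and had 0 E-boxes in their windows. NOP10, the only gene called lower there, had 2. Whether the E-box goes with the LPS response was not tested. The 4 stretches do not stand for the genes that rose. The stretches run 5′ to 3′ on the strand of the gene with the E-box in capitals. The regions are chr1:19251779-19251854 on the plus strand for MRTO4, chr2:28894630-28894715 on the plus strand for WDR43, chr6:41921487-41921548 on the plus strand for BYSL and chr22:30591861-30591937 on the minus strand for PES1. In all 4 the E-box lies just past the annotated start, beginning 14, 3, 28 and 13 bases beyond it, in that order.
MRTO4: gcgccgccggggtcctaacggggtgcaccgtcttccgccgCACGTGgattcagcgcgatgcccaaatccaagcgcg
WDR43: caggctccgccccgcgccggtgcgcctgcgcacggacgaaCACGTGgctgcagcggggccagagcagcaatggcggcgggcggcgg
BYSL: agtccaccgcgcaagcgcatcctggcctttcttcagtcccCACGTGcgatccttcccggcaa
PES1: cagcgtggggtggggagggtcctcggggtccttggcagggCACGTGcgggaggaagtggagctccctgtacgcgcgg

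Library totals ran from 8206023 to 22344279 counts, and 3 counts, the most that a count of 0 allows, corresponded to 0.133 to 0.378 counts per 1000000 counts (CPM), counting error only. TRAFD1, the target of the siRNA, was at 11.6, 5.37 and 9.02 CPM in the unstimulated KD libraries against 26.8, 20.1 and 24.3 CPM in SCR (log2 fold change -1.45, SE 0.23, edgeR adjusted p 0.0277, and 0.0640 to 0.119 without SCR replicate 1, SCR replicate 3 or KD replicate 2). With LPS it was at 15.8, 14.0 and 13.8 CPM in KD and at 21.9, 27.5 and 18.7 CPM in SCR, a difference that did not pass the test. In WT it was at 22.2, 21.2 and 18.3 CPM without and at 19.2, 20.3 and 11.6 CPM with LPS. The 10 THP-1 monocyte markers summed to 3100 to 4960 CPM, while the T cell genes CD3D, CD3E and CD2, the B cell genes MS4A1 and CD79A and the 3 erythroid genes stood at no more than 3 counts in any library. Of the unstimulated libraries, WT replicate 1 and KD replicate 1 stood apart. Their deviations from the group means followed the GC content of the genes (Spearman -0.322 and -0.300 across genes, against -0.146 to 0.214 in the other 16 libraries), and results that rest on them are given with and without them.

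Taken as a mean over the 40 genes, WT cells without LPS were the lowest group. Their mean log2 CPM was 5.34 ± 0.04 (SD, n = 3), against 5.62 ± 0.02 in SCR and 5.61 ± 0.08 in KD without LPS. With LPS the means were 5.72 ± 0.02 in WT, 5.82 ± 0.03 in SCR and 5.76 ± 0.02 in KD. The 3 unstimulated WT libraries, at 5.31 to 5.39, lay below the other 15, which ran from 5.52 in KD replicate 1 to 5.84 in an SCR library with LPS. The LPS libraries lay above the unstimulated libraries of the same condition in all 3 conditions, by the widest margin in WT. In such bulk values a higher level in every cell and a larger share of cells with a high level cannot be told apart. Since 3 of the comparisons that follow (the LPS response in WT, SCR against WT and KD against WT without LPS) use the same 3 unstimulated WT libraries, their values are given side by side and are not independent of each other.

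**Figure D1:**
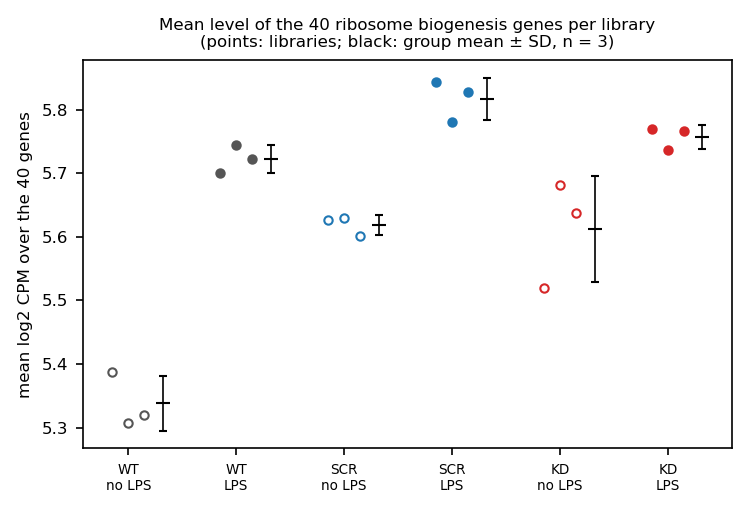
Mean log2 CPM (prior count 2) over the 40 genes on the y axis for each of the 18 libraries, by condition and stimulation on the x axis. Open points are unstimulated and filled points LPS libraries, and the black bar is the group mean ± SD (n = 3). The 3 unstimulated WT libraries at 5.31 to 5.39 are below all others, and the y axis does not start at 0.

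LPS raised the expression of a large part of these genes in WT. There 17 of the 40 rose, 1 fell and 22 did not pass the test, where a gene was called at an edgeR adjusted p under 0.05 (quasi-likelihood test, Benjamini-Hochberg adjustment over all genes tested). Of all genes tested, 14.3% were called, 7.01% higher and 7.26% lower. The median log2 fold change of the 40 was 0.35 against -0.03 over all genes, and 38 of the 40 were above 0. In SCR 10 rose and 0 fell (17.2% of all genes called, 8.64% higher and 8.56% lower), with a median of 0.20 and 27 of 40 above 0. In KD 4 rose and 0 fell (11.5% called, 6.41% higher and 5.05% lower), a share of 10.0% that lies near that of all genes, with a median of 0.16 and 27 above 0. The helicase gene DDX21 was called in all 3 conditions, 10 genes in 2 conditions, 9 in 1 condition (NOP10 of these lower, the others higher), and 20 of the 40 in none. The share of counts from mitochondrial genes was higher in every LPS library than in every unstimulated one in WT and SCR, and higher in unstimulated KD than in unstimulated WT and SCR libraries. It was 3.19 to 3.37% in WT, 3.28 to 3.47% in SCR and 3.87 to 4.86% in KD without LPS, and 3.82 to 4.45%, 3.72 to 5.20% and 4.28 to 5.14% with it, and its part in the results was not tested.

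**Figure D2:**
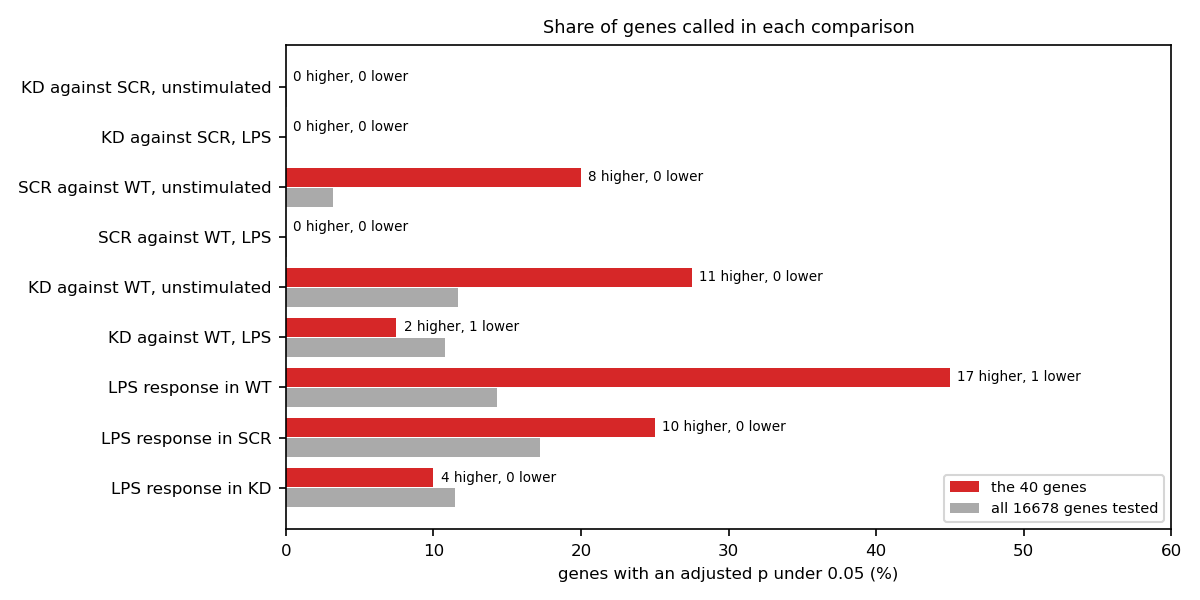
Share of genes with an edgeR adjusted p under 0.05 (x axis, percent) in each of 9 comparisons (y axis), red for the 40 ribosome biogenesis genes with the number higher and lower beside the bar, grey for all 16678 genes tested. The red bars exceed the grey most in the LPS response in WT (45.0% and 14.3%) and in SCR against WT without LPS (20.0% and 3.23%).

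Factors of the large subunit showed the widest LPS responses in WT, where 7 of 12 rose. NOP16, a factor bound to early precursors of the large subunit (chromosome 5 of GRCh37, 175810949 to 175815928, minus strand), went from 46.6, 48.9 and 42.0 CPM to 78.1, 74.4 and 72.4 CPM. All 3 LPS libraries were far above the unstimulated ones (log2 fold change 0.71, SE 0.10, edgeR adjusted p 1.4e-05), the smallest adjusted p of the 40 genes. MRTO4, which holds the place of the stalk protein on the maturing large subunit (chromosome 1, 19578299 to 19586622, plus strand), went from 21.9, 17.3 and 16.7 CPM to 36.8, 35.5 and 38.9 CPM (0.99, SE 0.16, edgeR adjusted p 0.00014). The groups did not overlap. PPAN, a pre-60S factor of low level (chromosome 19, 10217038 to 10222688, plus strand), went from 4.97, 8.17 and 5.69 CPM to 11.8, 14.0 and 14.9 CPM (1.13, SE 0.20), the largest fold change among the 40 in WT. PES1, which forms with BOP1 and WDR12 the PeBoW complex needed to process the large subunit RNA (chromosome 22, 30972612 to 31003070, minus strand), went from 25.0, 37.8 and 27.8 CPM to 53.8, 58.2 and 66.8 CPM (0.99, SE 0.22). Its partners did not follow it past the threshold, BOP1 at 0.35 and WDR12 at -0.25. GRWD1 (0.67), a chaperone of a large subunit protein, RRS1 (0.47), which helps to load the 5S particle, and the helicase DDX18 (0.37) were also called.

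The counted 3′ end of PPAN lies on the same strand as the gene P2RY11 and a readthrough of the pair, and that of GRWD1 overlaps KCNJ14, so that reads in those stretches cannot be told apart. That of UTP4 overlaps SNTB2 on the same strand. The 3′ ends of NOP16, POLR1B, POLR1C, NHP2, NOB1, NOP14, GNL3 and UBTF overlap a gene on the other strand, and the strand setting of the counting is not given in the sources used here. NPM1 has 49 named pseudogenes in the table, DDX18 has 5 and NOP56 has 3, and how reads that match several places were counted is not given either.

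Among the 12 small subunit factors 4 rose with LPS in WT. WDR43, a subunit of the UTP-A complex that joins transcription and processing of the precursor, went from 80.2, 60.2 and 72.0 CPM to 111, 108 and 116 CPM (0.65, SE 0.11, edgeR adjusted p 0.00036). BYSL, an assembly factor of the small subunit, went from 19.0, 26.1 and 25.5 CPM to 34.1, 38.3 and 40.6 CPM (0.68, SE 0.13). In both, every LPS library was above every unstimulated one. UTP20 (0.66) and the helicase DDX10 (0.41) were called too, UTP20 at only 4.72 to 11.6 CPM over all libraries.

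In the box C/D snoRNP, NOP56 rose from 65.3, 51.8 and 64.2 CPM to 86.8, 90.7 and 99.3 CPM in WT (0.61, SE 0.12), and NOP58 rose from 107, 72.6 and 98.0 CPM to 128, 127 and 122 CPM (0.44, SE 0.12). Their partner FBL, the methyltransferase of the particle, did not pass (127, 173 and 127 CPM without, 176, 173 and 203 CPM with LPS, 0.37, edgeR adjusted p 0.0914). The box H/ACA genes split. NHP2 rose by 0.35 while NOP10, the smallest core protein of the particle, was the only one of the 40 called lower, from 117, 128 and 128 CPM to 105, 102 and 91.3 CPM (-0.32, SE 0.10, edgeR adjusted p 0.0323). GAR1 and the pseudouridine synthase DKC1 did not pass.

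Nucleolin (NCL, chromosome 2, 232318242 to 232348352, minus strand), an abundant histone and RNA binding protein of the nucleolus, went from 568, 572 and 599 CPM to 724, 690 and 708 CPM (0.29, SE 0.09, edgeR adjusted p 0.0451). DDX21, a helicase that couples RNA polymerase I to processing (chromosome 10, 70715891 to 70744824, plus strand), went from 313, 226 and 276 CPM to 378, 376 and 355 CPM (0.44, SE 0.10). Both sets of libraries were separate. NPM1, the histone chaperone nucleophosmin and at 1250 to 1650 CPM the member with the most counts, did not pass (0.18, edgeR adjusted p 0.126). Of the polymerase I genes only POLR1C, a subunit shared with RNA polymerase III, was called (0.31). The large subunits POLR1A (0.20) and POLR1B (0.27), and UBTF, the factor that marks active ribosomal DNA (0.08), were not.

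Of the 18 calls in WT, 10 were lost in at least 1 fit that left out a library. In the 6 fits that each left out 1 library of the comparison, 8 calls were kept throughout (BYSL, DDX21, MRTO4, NOP16, NOP56, PES1, PPAN and WDR43), and DDX10, NCL and POLR1C were lost in all 6. The fold changes of NCL (0.27 to 0.31) and POLR1C (0.28 to 0.35) hardly moved in these fits. The part of the smaller number of libraries in such losses was not separated from that of a single library. The number called was 12 without unstimulated WT replicate 2 or 3, 11, 10 and 13 without WT LPS replicate 4, 5 and 6, and 18 without unstimulated WT replicate 1, which lost DDX10, NCL, NHP2 and POLR1C and added others. Over all genes 9.72 to 12.1% were called in these 6 fits. With WT and KD replicate 1 of the unstimulated libraries both left out 20 were called (50%, against 13.0% of all genes).

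Of the 10 genes that rose with LPS in SCR, 8 had also risen in WT. NOP58 went from 99.1, 103 and 101 CPM to 167, 151 and 165 CPM (0.67, SE 0.12, edgeR adjusted p 0.00054), the smallest adjusted p of the 40 there. MRTO4 went from 21.3, 19.5 and 20.8 CPM to 37.8, 31.7 and 39.5 CPM (0.82, SE 0.16), with no overlap of the groups. NOP56 (0.50), WDR43 (0.50), DDX10 (0.53), WDR75 (0.53), LTV1 (0.73), NCL (0.37, SE 0.09, edgeR adjusted p 0.0099), DDX18 (0.34) and DDX21 (0.32) rose as well. PES1, PPAN, BYSL and RRS1, called in WT, gave 0.11, 0.23, 0.21 and -0.14 in SCR with adjusted p of 0.773, 0.467, 0.309 and 0.432 by edgeR. NPM1 (-0.04), FBL (-0.13), POLR1A (-0.01), POLR1B (0.08) and UBTF (0.20) did not pass. Of the 10 calls 6 were kept whichever library was left out, and without SCR LPS replicate 4 the number fell to 6 (15%, against 10.3% of all genes).

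In KD the called genes were LTV1, DDX21, NOP16 and WDR75. LTV1, an assembly factor of the small subunit (chromosome 6, 144164475 to 144184949, plus strand), went from 61.6, 46.4 and 40.2 CPM to 89.6, 92.3 and 99.1 CPM (0.92, SE 0.17, edgeR adjusted p 0.00122). DDX21 went from 308, 292 and 267 CPM to 399, 400 and 378 CPM (0.44, SE 0.10). NOP16 went from 71.3, 66.8 and 66.6 CPM to 99.4, 87.6 and 85.1 CPM (0.41, SE 0.09). WDR75, another UTP-A subunit, went from 20.1, 12.9 and 15.5 CPM to 26.3, 30.6 and 24.6 CPM (0.75, SE 0.18, edgeR adjusted p 0.010), and was not called without KD LPS replicate 5 (edgeR adjusted p 0.0592). In these 4 genes the LPS libraries were all above the unstimulated ones. NCL (0.11), NPM1 (-0.04), FBL (-0.18), POLR1A (-0.30), POLR1B (0.40) and UBTF (-0.32) did not pass.

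The count in KD depended on the library that stood apart. Without unstimulated KD replicate 1 the number called was 9, with 7 higher and 2 lower (22.5%), where 18.3% of all genes were called in that fit against 11.5% with the library. The genes added were GAR1 (0.52), GNL3 (0.49), the snoRNP chaperone NOLC1 (0.44), RRP12 (-0.50) and UBTF (-0.50), with edgeR adjusted p of 0.00988 to 0.0273. With WT replicate 1 left out too, 10 were called, 7 higher and 3 lower (25%, against 19.6% of all genes).

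**Figure D3:**
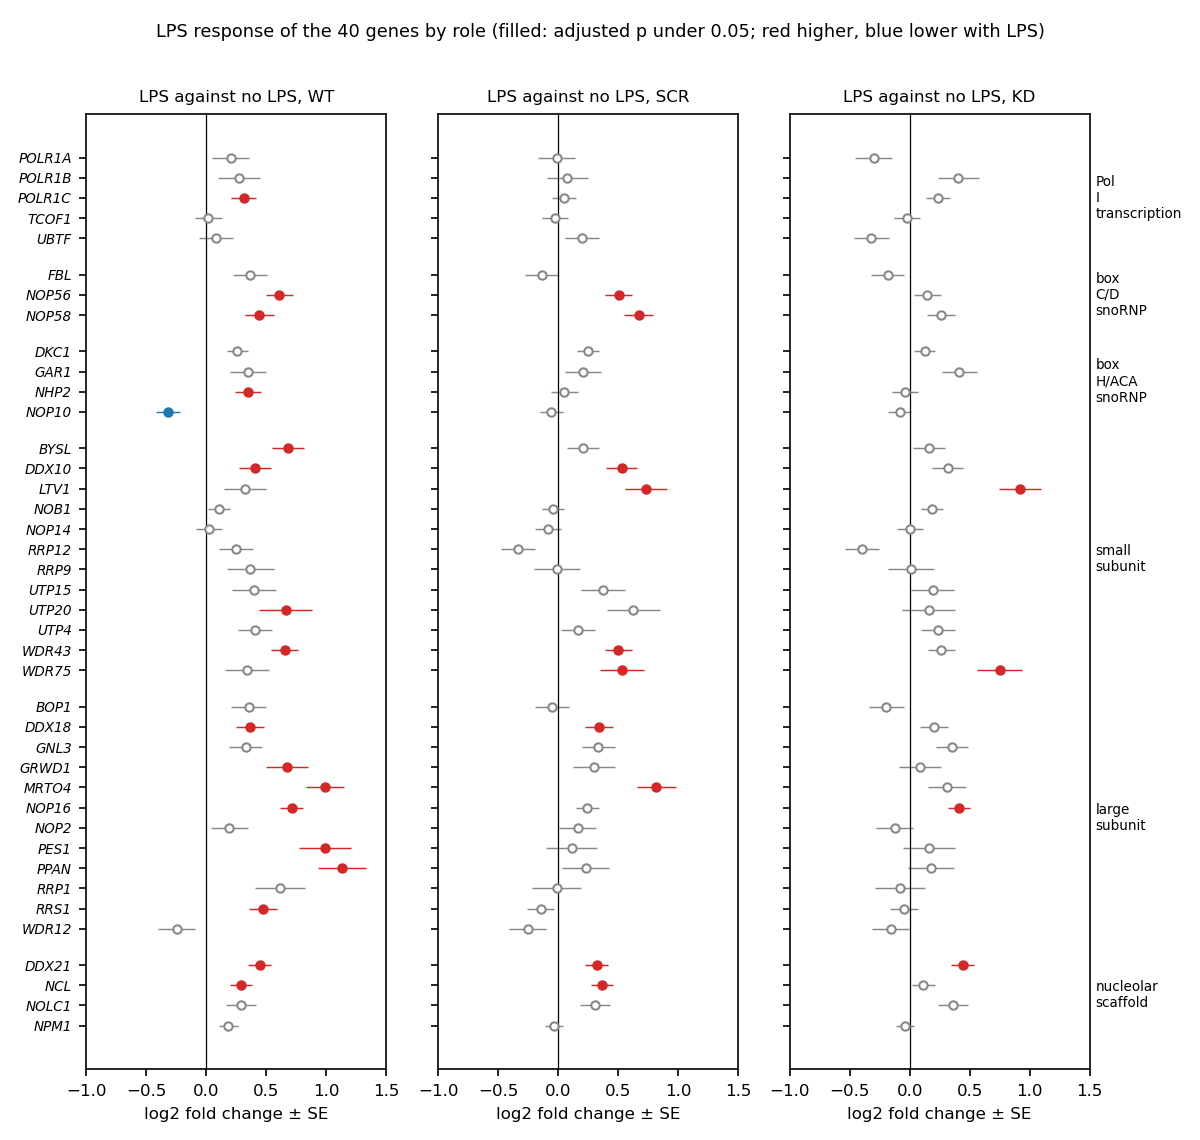
Log2 fold change with LPS (x axis, ± SE) of each of the 40 genes (y axis, grouped by role) in WT, SCR and KD. Filled points have an edgeR adjusted p under 0.05, red higher and blue lower with LPS. There are 18 filled points for WT, 10 for SCR and 4 for KD, and most open points in WT also lie to the right of 0.

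Whether the LPS response differed between conditions was tested as an interaction, and no gene of the 40 passed by edgeR with the filter on low counts. For SCR minus WT edgeR called 0 (0.234% of all genes were called). By the same test 8 had an unadjusted p under 0.05 (20.0%, against 9.96% of all genes). DESeq2 called 0 on all libraries and 2, PES1 and RRS1, on the compared groups alone (5%, against 0.35% of all genes). With no filter on low counts edgeR called 1, PES1 (-0.86, adjusted p 0.00298), a share of 2.5%, against 0.707% of all genes. The differences leaned one way, with 31 of 40 below 0 and a median of -0.14. Among the genes called in WT, the difference was widest for PPAN (-0.90, SE 0.28, edgeR adjusted p 0.307), PES1 (-0.88, SE 0.31, edgeR adjusted p 0.389) and RRS1 (-0.62, SE 0.16, edgeR adjusted p 0.206). The lowest group in these genes is again WT without LPS. For KD minus SCR 0 were called by edgeR (0% of all genes), and DESeq2 called 0. By edgeR 4 had an unadjusted p under 0.05 (10.0%, against 7.64% of all genes). The SE of this interaction for a single gene ran from 0.11 to 0.31, so that differences of that size could not be seen. Wider ones could be missed too, as RRS1 was above at -0.62 with SE 0.16. The responses in SCR and KD are thus not shown to differ, nor shown to be alike.

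Without LPS, a part of the 40 genes was higher in the siRNA-treated cells than in WT. In SCR 8 of the 40 were higher and 0 lower than in WT (3.23% of all genes called, 1.78% higher and 1.45% lower), with a median log2 fold change of 0.28 against 0.01 over all genes and 36 of 40 above 0. In KD 11 were higher and 0 lower than in WT (11.7% called, 5.85% higher and 5.85% lower), with a median of 0.28 and 36 above 0. By role, 4 of 12 large subunit and 2 of 12 small subunit factors were called in SCR, and 6 and 2 of 12 in KD.

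NOP16 had the smallest adjusted p of the 40 in both. It was at 66.5, 72.2 and 64.8 CPM in SCR and at 71.3, 66.8 and 66.6 CPM in KD, against the 42.0 to 48.9 CPM of WT (0.57, SE 0.09, edgeR adjusted p 0.0020 for SCR, and 0.58, SE 0.09, edgeR adjusted p 0.00057 for KD). RRP12, a factor of the late nucleolar steps and of export, was at 19.7, 24.4 and 24.2 CPM in SCR, at 21.8, 27.2 and 27.3 CPM in KD and at 13.0, 15.7 and 15.5 CPM in WT (0.62, SE 0.14, and 0.79, SE 0.14). PPAN was at 10.0, 12.5 and 10.9 CPM in SCR and at 9.0, 12.1 and 13.1 CPM in KD (0.84, SE 0.20, and 0.88, SE 0.20). All siRNA libraries exceeded all WT libraries in these 3 genes.

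PES1 was at 49.3, 55.8 and 57.1 CPM in SCR, above all WT libraries (0.85, SE 0.22, edgeR adjusted p 0.0348). In KD it was at 64.3 and 66.3 CPM in replicates 2 and 3 but at 28.6 CPM in replicate 1, within the range of WT. Its fold change in KD was 0.82 (SE 0.22, edgeR adjusted p 0.0176), and 1.01 with replicate 1 of KD and WT left out. BYSL (0.62 in SCR, 0.57 in KD), POLR1C (0.39 and 0.35) and RRS1 (0.44 and 0.40) were called in both comparisons. DDX21 was called in SCR alone, at 356, 351 and 361 CPM (0.39, SE 0.10), and NHP2 (0.65, SE 0.11), GNL3 (0.49), BOP1 (0.47) and NOP56 (0.39) in KD alone. Without KD replicate 1, GNL3 (0.35, edgeR adjusted p 0.0971) and POLR1C (0.29, edgeR adjusted p 0.0930) were no longer called in KD against WT, where 13 genes then passed. Without WT replicate 1, BOP1, BYSL, PES1, POLR1C and RRS1 were not called in KD (0.35 to 0.70, edgeR adjusted p 0.0547 to 0.124), and in SCR only NOP16 and DDX21 were. The difference between the sets of genes was not tested beyond KD against SCR.

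NCL, at 517, 626 and 557 CPM in SCR and 523, 707 and 614 CPM in KD, gave -0.03 and 0.08 and was not called. NPM1 gave 0.18 and 0.23 (edgeR adjusted p 0.220 and 0.0507) and FBL 0.37 and 0.35 (0.155 and 0.119 by edgeR). POLR1A (0.29 and 0.23), POLR1B (0.37 and 0.28) and UBTF (-0.11 and -0.06) were not called either. The counts were fragile. In SCR against WT the number called was 2 without WT replicate 1, SCR replicate 1, SCR replicate 2 or SCR replicate 3, and 3 without WT replicate 3, while the share of all genes called fell from 3.23% to between 1.12 and 2.01% in these fits. NOP16 alone was kept in all 6 fits. In KD against WT it was 5 without WT replicate 3 (5.59% of all genes) and 7 without KD replicate 2 (10.4% of all genes), and NHP2, NOP16, PPAN and RRP12 were kept in all 6. Fitted on the libraries of the comparison alone, edgeR called 5 and 3 (2.60 and 1.81% of all genes). With WT and KD replicate 1 both left out 7 and 10 were called (3.38 and 6.47% of all genes).

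**Figure D4:**
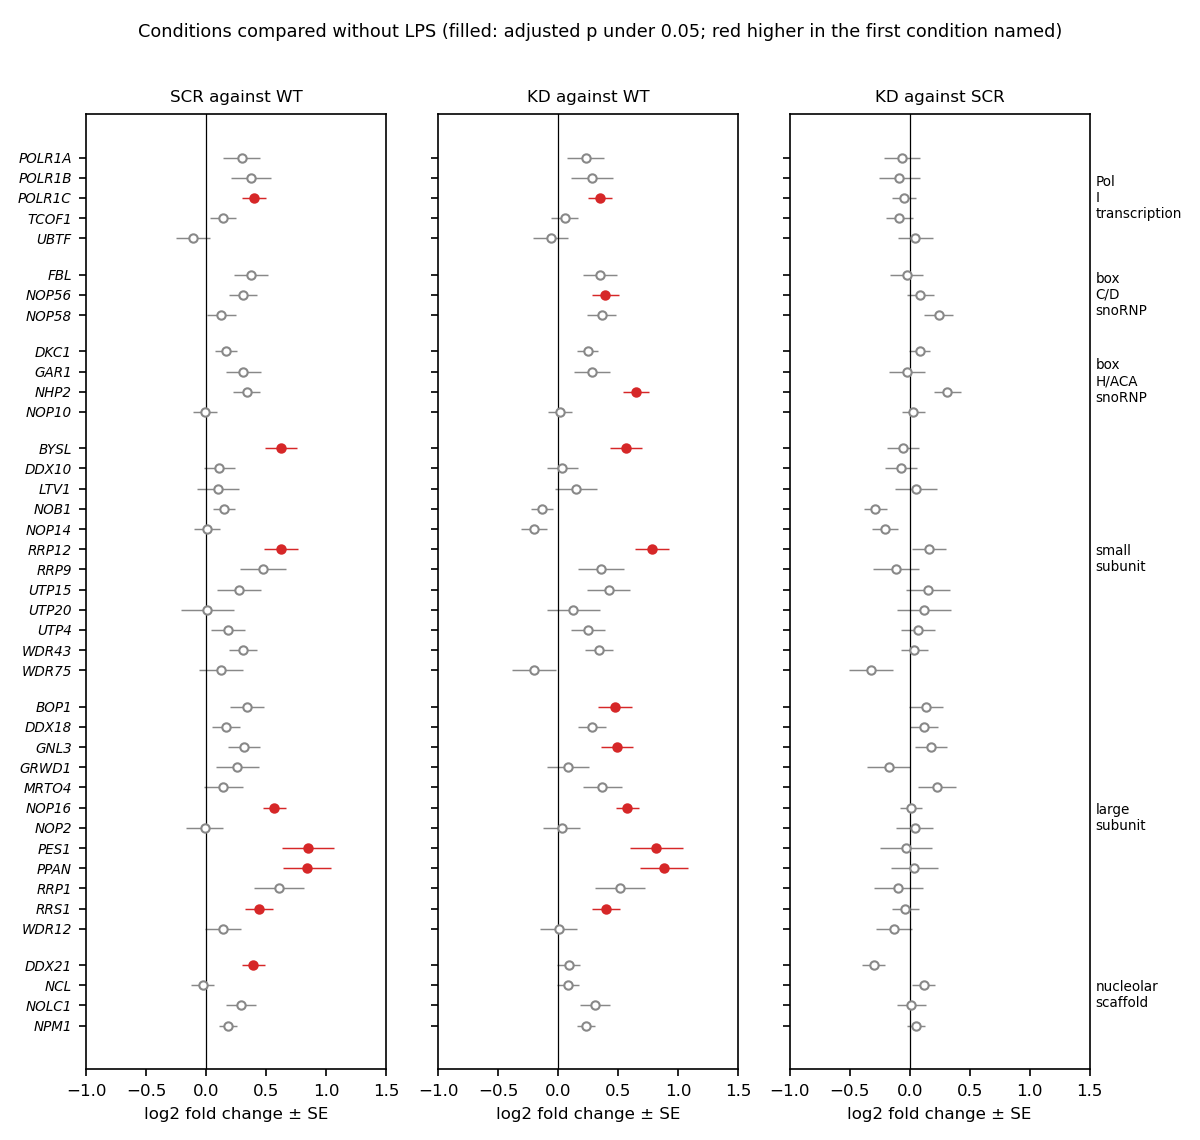
Log2 fold change without LPS (x axis, ± SE) of each of the 40 genes (y axis, grouped by role) for SCR against WT, KD against WT and KD against SCR. Filled red points have an edgeR adjusted p under 0.05 and are higher in the condition named first. There are 8, 11 and 0 filled points.

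Silencing of TRAFD1 itself is read from KD against SCR, and here no gene of the 40 was called. Without LPS edgeR called 0 (0.0660% of all genes), 3 had an unadjusted p under 0.05 (7.50%, against 12.6% of all genes), and DESeq2 called 0. The median log2 fold change was 0.02, with 22 above and 18 below 0. DDX21 was lower in KD in all 3 libraries (308, 292 and 267 CPM against 356, 351 and 361 CPM, -0.30, SE 0.10, edgeR adjusted p 0.179). The endonuclease gene NOB1, whose product makes the last cut of the small subunit RNA, had 57.3, 58.6 and 58.6 CPM against 67.3, 77.9 and 67.5 CPM (-0.28, SE 0.09, edgeR adjusted p 0.189). NHP2 had 57.8, 70.9 and 58.1 CPM against 56.4, 44.7 and 48.8 CPM (0.31, SE 0.11, edgeR adjusted p 0.223). These 3 were the genes with the smallest adjusted p, and none passed. NCL (0.12, SE 0.09), NPM1 (0.05, SE 0.08), FBL (-0.03, SE 0.14), POLR1A (-0.06, SE 0.15), POLR1B (-0.09, SE 0.17) and UBTF (0.05, SE 0.14) did not pass. The SE of the 40 genes ran from 0.08 to 0.22. Differences of that size could not be shown here, and wider ones could be missed too, as DDX21 was at -0.30 with SE 0.10.

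With LPS, edgeR again called 0 of the 40 in KD against SCR (0% of all genes), 5 had an unadjusted p under 0.05, all of them lower in KD (12.5%, against 11.8% of all genes), and DESeq2 called 0 on all libraries. The median was -0.05, with 14 above and 26 below 0. UBTF was at 36.0, 32.6 and 40.9 CPM in KD, below 49.7, 47.7 and 54.1 CPM in SCR and 52.6, 47.8 and 50.2 CPM in WT. Against SCR its log2 fold change was -0.47 (SE 0.15, edgeR adjusted p 0.221), which did not pass. It was called by 2 alternatives, edgeR with no filter on genes of low count (-0.48, adjusted p 0.0472) and DESeq2 on the 6 libraries alone (-0.47, adjusted p 0.0123). UBTF was the only one of the 40 called in each (2.5%), near the 1.25 and 2.1% of all genes called there. NCL (-0.13), NPM1 (0.05), FBL (-0.08), POLR1A (-0.35) and POLR1B (0.24) did not pass.

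Against WT with LPS, KD had 2 genes higher and 1 lower, a share of 7.50% below the 10.8% of all genes (6.29% higher, 4.55% lower). LTV1 was at 89.6, 92.3 and 99.1 CPM in KD against 64.6, 51.3 and 50.8 CPM in WT (0.75, SE 0.17, edgeR adjusted p 0.0106). GNL3, the GTPase nucleostemin, was at 89.8, 81.2 and 87.0 CPM against 64.2, 60.6 and 56.1 CPM (0.51, SE 0.13, edgeR adjusted p 0.0192). UBTF was lower (-0.46, SE 0.15, edgeR adjusted p 0.0465), and this call was lost in each of the 6 fits that left out 1 library. Groups were separate in all 3 genes. Without WT LPS replicate 6 none of the 3 was called (2.18% of all genes were). Without KD LPS replicate 4 or 6 LTV1 alone was called (6.46 and 6.41% of all genes). Fitted on the 6 libraries alone, edgeR called 7, GAR1, GRWD1, MRTO4 and NOLC1 among them, a share of 17.5% below the 21.6% of all genes in that fit. NCL (-0.09), NPM1 (0.01), FBL (-0.20), POLR1A (-0.27) and POLR1B (0.42) did not pass. In SCR against WT with LPS edgeR called 0 (0.114% of all genes, and 0.809% with the replicate block, which called 0 of the 40 as well). By the same edgeR test 6 had an unadjusted p under 0.05, all higher in SCR (15%, against 13.7% of all genes). DESeq2 called 0 on all libraries (1.18% of all genes). On the 6 libraries alone it called 3, DDX21, LTV1 and NOP58 (7.5%, against 1.58% of all genes). NCL (0.04), NPM1 (-0.04), FBL (-0.12), POLR1A (0.08), POLR1B (0.18) and UBTF (0.01) did not pass there.

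**Figure D5:**
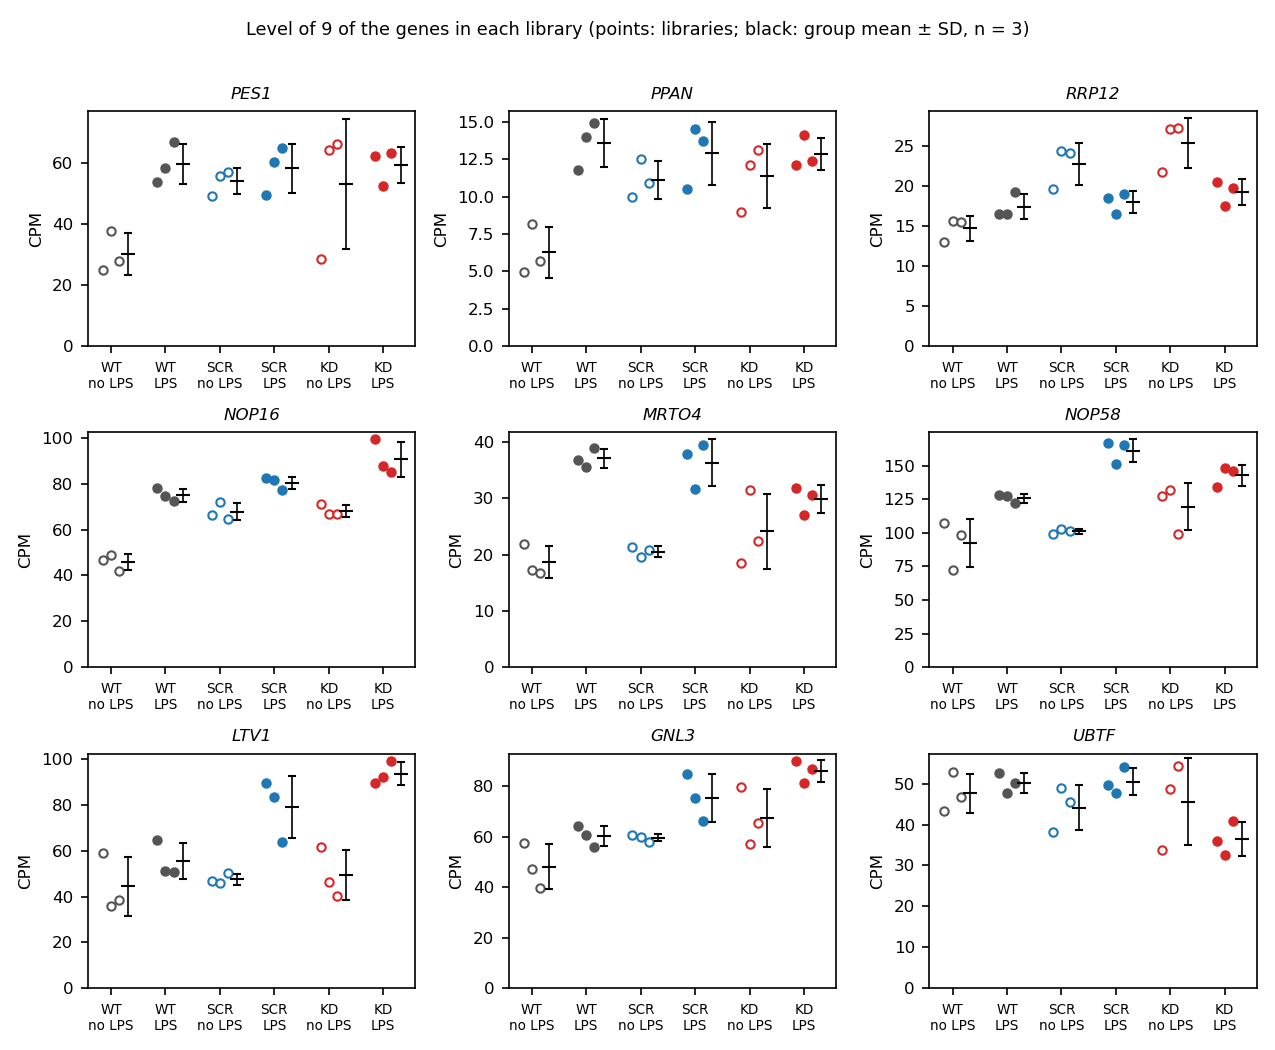
CPM (y axis, from 0) in each of the 18 libraries for 9 of the genes, by condition and stimulation on the x axis. Open points are unstimulated and filled points LPS libraries, and the black bar is the group mean ± SD (n = 3). PES1, PPAN and NOP16 are lowest in WT without LPS, MRTO4 and NOP58 are higher with LPS in WT and SCR, LTV1 is highest in KD with LPS (93.6 ± 4.90 CPM), and UBTF is lowest there (36.5 ± 4.19 CPM).

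The fold changes of the 40 genes were related to the GC content of the last 500 bases, which ran from 32.6% to 60.8% with a median of 43.3% (42.9% over the genes tested). Across the 40 genes the Spearman correlation with GC was 0.33 for SCR against WT and 0.34 for KD against WT without LPS, where it was 0.07 and 0.08 over 16235 genes. With LPS it was -0.60 for SCR against WT and -0.48 for KD against WT, where it was -0.23 and -0.17 over all. For the LPS response it was 0.15 in WT, -0.32 in SCR and -0.45 in KD. These correlations are across genes, which share their libraries, and are a description. With a correction for GC in the fit the numbers called were 7 and 15 for SCR and KD against WT without LPS and 9 for the LPS response in SCR. These were 17.5, 37.5 and 22.5% of the 40, against 3.96, 12.6 and 17.7% of all genes. For KD against WT with LPS 4 were called higher and 0 lower (10%, against 11.5% of all genes), and UBTF was lost (-0.46, edgeR adjusted p 0.0535). The part of GC in the single values was not tested further.

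Other genes of the pathway were taken from a second list of ribosome biogenesis factors, of which 93 were tested. With LPS 28 of these rose and 2 fell in WT, 30 rose and 2 fell in SCR, and 16 rose and 0 fell in KD, with medians of 0.34, 0.26 and 0.19. The shares called were 32.3, 34.4 and 17.2% of the list, against 14.3, 17.2 and 11.5% of all genes. Without LPS 3 were higher and 0 lower in SCR than in WT (3.23% of the list, the same share as of all genes), and 12 were higher and 2 lower in KD (15.1%, against 11.7% of all genes). With LPS 9 were higher and 5 lower in KD than in WT (15.1%, against 10.8% of all genes). In KD against SCR edgeR called 0 in both states.

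Of the genes of the cytosolic ribosomal proteins, the structural parts that the 40 factors assemble, 77 were tested. In KD against WT without LPS 43 were higher and 1 lower (57.1%, against 11.7% of all genes), with a median of 0.29. In SCR against WT 8 were higher and 0 lower (10.4%, against 3.23% of all genes), with a median of 0.17. With LPS 6 rose and 0 fell in WT (7.79%, against 14.3% of all genes), 0 rose and 5 fell in SCR (6.49%, against 17.2%), and 0 rose and 1 fell in KD (1.30%, against 11.5%), with medians of 0.10, -0.02 and -0.10. In WT 66 of the 77 were above 0, and the difference between this list and the 40 genes was not tested. In KD against WT with LPS 19 were higher and 2 lower (27.3%, against 10.8% of all genes).

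MYC was at 13.5, 10.1 and 8.36 CPM without and at 7.88, 12.5 and 6.95 CPM with LPS in WT, which was no change past the threshold (-0.21, SE 0.25, edgeR adjusted p 0.645). It was at 9.87, 10.1 and 13.1 CPM without and 16.3, 16.5 and 12.2 CPM with LPS in SCR, and at 17.0, 11.2 and 13.7 CPM without and 16.3, 25.0 and 26.4 CPM with LPS in KD. With LPS it was higher in KD than in WT (1.30, SE 0.24, edgeR adjusted p 0.00324), which is the one comparison in which it was called. MXI1, which codes for an antagonist of MYC that shares its partner MAX, fell with LPS in each condition, on the log2 scale by 1.36 (WT), 0.87 (SCR) and 0.88 (KD). Of the 11 genes of the MYC network tested, 0 rose and 3 fell with LPS in WT, 0 rose and 3 fell in SCR and 0 rose and 1 fell in KD. The shares called were 27.3, 27.3 and 9.09%, against 14.3, 17.2 and 11.5% of all genes. Among 10 genes of the cell cycle, 2 were higher and 1 lower in both SCR and KD than in WT without LPS (30% in both, against 3.23 and 11.7% of all genes). RRM2, a subunit of ribonucleotide reductase, was the one with the largest difference (0.67 and 0.70), and TOP2A, topoisomerase II, was lower (-0.41 and -0.43).

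The inflammatory genes used to check the LPS labels, TNF, IL1B, CXCL8, CXCL10 and NFKBIA, rose with LPS in all 3 conditions, and their median response was 4.01 for WT, 3.84 for SCR and 3.34 for KD. Without LPS 3 of these 5 were also higher in SCR than in WT, and 3 of 5 in KD than in WT. TNF was at 12.7, 18.7 and 16.2 CPM in WT, at 46.9, 47.9 and 35.1 CPM in SCR and at 45.2, 49.6 and 34.9 CPM in KD without LPS (1.46 and 1.45 against WT). CXCL10 was higher in SCR by 1.89 and in KD by 1.03, and NFKBIA in SCR by 0.63. In KD CXCL8 was also higher (1.82, edgeR adjusted p 0.0327). Without KD replicate 1 CXCL8 (0.96, edgeR adjusted p 0.30) and CXCL10 (0.85, edgeR adjusted p 0.104) were not called in KD against WT, which left TNF. The 10 monocyte markers summed to 3570 to 4450 CPM in WT, 4120 to 4960 CPM in SCR and 3100 to 3390 CPM in KD without LPS. The part of these differences in those of the ribosome biogenesis genes was not tested.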

How the data were processed

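QuantSeq libraries, which sequence the 3′ end of polyadenylated RNA, were made from 18 samples of THP-1 cells in 6 groups of 3. The authors aligned the reads with HISAT to GRCh37 and counted them with featureCounts over the last 500 bases of each Ensembl gene, and deposited 1 table of raw counts. The strand setting and the treatment of reads with several matches are not given in the sources used here. A gene length does not enter these values. The 63677 genes were named with GENCODE v44lift37 (55665 had a symbol), 34092 had counts, and all 18 columns were used.

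Genes with low counts were removed (filterByExpr by group, 16678 left). A model of 6 group means took in all 18 libraries (edgeR 4.0.16 under R 4.3.3, TMM scaling, quasi-likelihood F test), with Benjamini-Hochberg adjustment over the genes tested and a threshold of 0.05, for 6 pairs of conditions, 3 LPS responses and 2 interactions. The SE is the log2 fold change over the square root of F. The study tested each pair with DESeq2 after removing genes without counts, which is among the alternatives here (DESeq2 1.42.0). CPM use totals scaled by TMM, and log2 CPM have a prior count of 2. Total counts per library (8206023 to 22344279) set the counting error, and the biological coefficient of variation common to all genes was 0.170. With 3 libraries a group an exact permutation test of 1 gene cannot go below 0.1, so that the model across genes was used. The fit was tested on simulated counts.

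Replicate libraries differed by more than counting noise (chi-square of 4.92 to 33.6 per degree of freedom). Pairing by replicate number was checked by the correlation of deviations from the group means. The 3 pairs of SCR and WT with LPS gave 0.261, 0.163 and 0.253, which does not show that those numbers pair the samples. The labels do not say so, and KD and WT replicate 1 without LPS gave 0.304. The deviations of these LPS libraries also followed GC alike (Spearman -0.0716, -0.0819 and 0.137 in WT, -0.0714, -0.127 and 0.214 in SCR). With the replicate block 0 of the 40 genes and 0.809% of all genes were called in SCR against WT with LPS. No other pair of conditions had all 3 above 0.1.

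The 40 genes, the comparison lists and the tests were chosen with earlier results of these data known. In each comparison the called members with the lowest adjusted p, up to 3 in each direction, were named, with NCL, NPM1, FBL, POLR1A, POLR1B, UBTF, MYC, TRAFD1 and the LPS check genes, and other called members with their fold change. Genes named otherwise were chosen after their values were seen. Promoter windows came from RefSeq for GRCh38.p14, which is not the build of the counts. Alternatives were other size factors, no filter, DESeq2, a GC correction, a replicate block, fits to the compared groups alone, other prior counts and each library left out. Leaving out WT and KD replicate 1 together was added after seeing the data.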

Additional observations from a re-analysis of the deposited data

Results flagged for a closer look

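By edgeR with the filter on low counts, the LPS response of 3 of the inflammatory genes that check the LPS labels differed between SCR and WT. In that interaction test none of the 40 ribosome biogenesis genes did. For CXCL10 the response in SCR minus that in WT was a log2 difference of -2.075 (SE 0.348, edgeR adjusted p 0.0074). For TNF it was -1.425 (SE 0.211, edgeR adjusted p 0.0021), and for NFKBIA -0.6302 (SE 0.125, edgeR adjusted p 0.033). CXCL10 and TNF stayed past the threshold in all 12 fits that left out 1 library, and NFKBIA in 3 of them. With groups of 3 libraries no single library was tested as an outlier.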

How the results depend on the processing

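Of 54 calls of ribosome biogenesis genes, refitted 733 times in all under the alternatives, 566 refits kept the call, 167 lost it in the same direction and 0 reversed it. The number called in KD against SCR without LPS and in the KD minus SCR interaction was 0 under every alternative run. Fits to the compared groups alone with edgeR called 5 in SCR against WT and 3 in KD against WT without LPS, and 7 in KD against WT with LPS. These were 12.5, 7.5 and 17.5% of the 40, against 2.6, 1.81 and 21.6% of all genes. DESeq2 on the compared groups without a filter called 1 in KD against SCR with LPS, 3 in SCR against WT with LPS, 5 in KD against WT without and 6 with LPS, and 2 in the SCR minus WT interaction. In that order these were 2.5, 7.5, 12.5, 15 and 5% of the 40, against 2.1, 1.58, 2.86, 10.1 and 0.35% of all genes. Without the filter edgeR called 1 in KD against SCR with LPS, 1 in SCR against WT with LPS and 1 in the SCR minus WT interaction. Each was 2.5% of the 40, against 1.25, 1.74 and 0.707% of all genes. DESeq2 on all libraries called 5 in KD against WT with LPS (12.5%, against 13.8% of all genes). The replicate block called 10 in SCR against WT and 16 in KD against WT without LPS, 6 in KD against WT with LPS, and 0 in the other pairs of conditions and in both interactions. The first 3 were 25, 40 and 15% of the 40, against 5.60, 14.5 and 15.4% of all genes. The block with the GC correction called 18 in KD against WT without and 5 with LPS (45 and 12.5% of the 40, against 15 and 15.6% of all genes). The labels do not say that these replicate numbers pair the samples, and no paired analysis was possible for the LPS responses because the libraries are numbered 1 to 3 without and 4 to 6 with LPS. With WT and KD replicate 1 both left out, 10 were called for LPS in KD (25%, against 19.6% of all genes). With single libraries left out the number called ran from 2 to 7 in SCR against WT without LPS, from 5 to 13 in KD against WT without and 0 to 2 with LPS, from 10 to 18 for LPS in WT, from 6 to 10 in SCR and from 3 to 9 in KD. In that order the shares of all genes ran from 1.12 to 2.95%, 5.59 to 11.3%, 2.18 to 8.26%, 9.72 to 12.1%, 10.3 to 13.8% and 6.37 to 18.3%. The cause of these changes was not tested, and the part of the smaller number of libraries was not separated. Prior counts of 0.5 and 5 moved no group mean by more than its SD. The SE of a single gene in a pair of conditions ran from 0.08 to 0.22 on the log2 scale, and the parts of depth, number of libraries and spread between them were not separated.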
